A study of Homo sapiens with 12 samples.

Results

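PC9 cells that had received gefitinib and then shared a well with MRC-5 lung fibroblasts were compared with PC9 cells grown alone in DMSO, the solvent control. The comparison asked how far drug-treated carcinoma cells stood from the untreated level once fibroblasts were present. It rests on 6 of the 12 arrays of the study, 3 per group, chosen by their sample titles. Transcripts were called back at the untreated level, still shifted or overshooting by setting each gene's distance from the DMSO arrays beside its distance with gefitinib alone, which was measured on 3 further arrays. Both distances use the same 3 DMSO arrays, so they are not independent of each other.

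PC9 is a line of human lung adenocarcinoma, and MRC-5 is a line of human lung fibroblasts. The 4 groups of 3 arrays held PC9 cells that grew without fibroblasts in DMSO (DMSO alone) or in gefitinib (gefitinib alone), or that were co-cultured without gefitinib or after it, the last of these being called the drugged co-culture. Per the labels, gefitinib was given at 0.5 µM from 24 h, followed by washes in PBS, and the co-culture ran for 48 h through an insert with 1 µm pores in EMEM with 10% FCS, whereas PC9 was otherwise kept in RPMI 1640. This treatment text stands on every sample, and the sources used here do not give whether the monocultures were also moved to EMEM, whether the undrugged co-culture received DMSO, or whether any gefitinib remained while the fibroblasts were there. The compared groups therefore differ in drug, in fibroblasts and possibly in medium, which cannot be told apart in this contrast alone. All 6 co-culture titles carry a suffix WH that the sources do not explain. Both lines are single established lines, the labels do not say that the 3 samples of a group were separate cultures, and the p-values therefore measure the spread between these samples, which may be technical.

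PC9 carries an activating mutation of EGFR, the receptor for epidermal growth factor, and depends on its signal for growth. Gefitinib blocks the kinase of that receptor. The signal runs through RAS, RAF and MEK to the kinase ERK, which switches on transcription factors of the ETS and AP-1 families together with feedback inhibitors such as the DUSP phosphatases and the Sprouty proteins. Lung fibroblasts are known to secrete growth factors, HGF among them, that act on other receptors of carcinoma cells and feed into the same cascade.

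On each array 20917 to 22820 probes were detected, with mean signals of 370.9 to 443.79 intensity units. The number of arrays, 3 per group, limits the precision. Levels are log2 signals after background correction and quantile normalization, so that a difference of 1 is a 2-fold change. They can be compared between groups for 1 gene, not between genes. Pearson's r across genes between arrays of a group lay between 0.9886 and 0.9909. On the first principal component, which held 59.33% of the variance, the DMSO arrays averaged -31.1 ± 0.406 (SD, n = 3), the co-cultures without drug -28.8 ± 0.507, gefitinib alone 43.1 ± 0.43 and the drugged co-cultures 16.9 ± 4.38. The 3 drugged co-culture arrays lay at 21.45, 16.43 and 12.72, between untreated and gefitinib alone and farther apart than the arrays of any other group. On the second component, which held 6.93%, they averaged -16.9 ± 0.671, against 7.13 ± 2.32 with DMSO, 10.9 ± 0.807 with gefitinib alone and -1.19 ± 1.62 in co-culture without drug. In bulk samples such as these, fewer cells with a transcript and less of it per cell cannot be told apart.

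Of 13514 genes tested, 3385 differed between the drugged co-culture and DMSO alone (25%, limma with Benjamini-Hochberg adjustment, threshold 0.05), 1781 higher (13.2%) and 1604 lower (11.9%). Of these, 1681 differed by at least 1.5-fold (12.4%), 1028 higher (7.61%) and 653 lower (4.83%). Without drug, co-culture changed 48 genes (0.355%), 32 up (0.237%) and 16 down (0.118%), and gefitinib alone changed 5511 (40.8%), 2846 up (21.1%) and 2665 down (19.7%). Gefitinib alone moved 3289 genes (24.3%) by at least 1.5-fold, 1753 up (13%) and 1536 down (11.4%), and these are the genes sorted below. A gene was called still shifted when the drugged co-culture passed the test at 1.5-fold or more in the same direction. It was called back when the 95% interval of its difference lay wholly within 1.5-fold of DMSO alone either way, and overshooting when it passed at 1.5-fold or more in the opposite direction.

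Of the 1753 genes that gefitinib alone raised, 912 stayed shifted (52.0%), 222 were back (12.7%), 0 overshot and 619 could not be placed (35.3%). Of the 1536 genes that it lowered, 564 stayed shifted (36.7%), 275 were back (17.9%), 2 overshot (0.13%) and 695 could not be placed (45.2%). Of the 1314 unplaced genes, 720 still passed the test against DMSO alone in the direction of the drug, and 0 in the other direction. The raised genes had a median difference from DMSO alone of 0.95 with gefitinib alone and 0.62 in the drugged co-culture, and the median of the genes' own ratios was 64.0%. The lowered genes had medians of -0.89 and -0.51 and a median ratio of 54.4%. Since the genes were picked for their distance with gefitinib alone, their smaller distance in another group is in part set by that choice, and the ratios are a description. Without background correction 466 genes stayed higher and 217 stayed lower. With median scaling 28 genes were back from higher, and without drugged co-culture replicate 3 the number was 135. At the 1.5-fold limit, WNT7B (0.586), SEC61A2 (-0.585) and KLC1 (-0.585) lay just inside the shifted class, and MAP2 (0.585), PALS2 (-0.585) and CTSK (0.584) just outside.

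**Figure D1:**
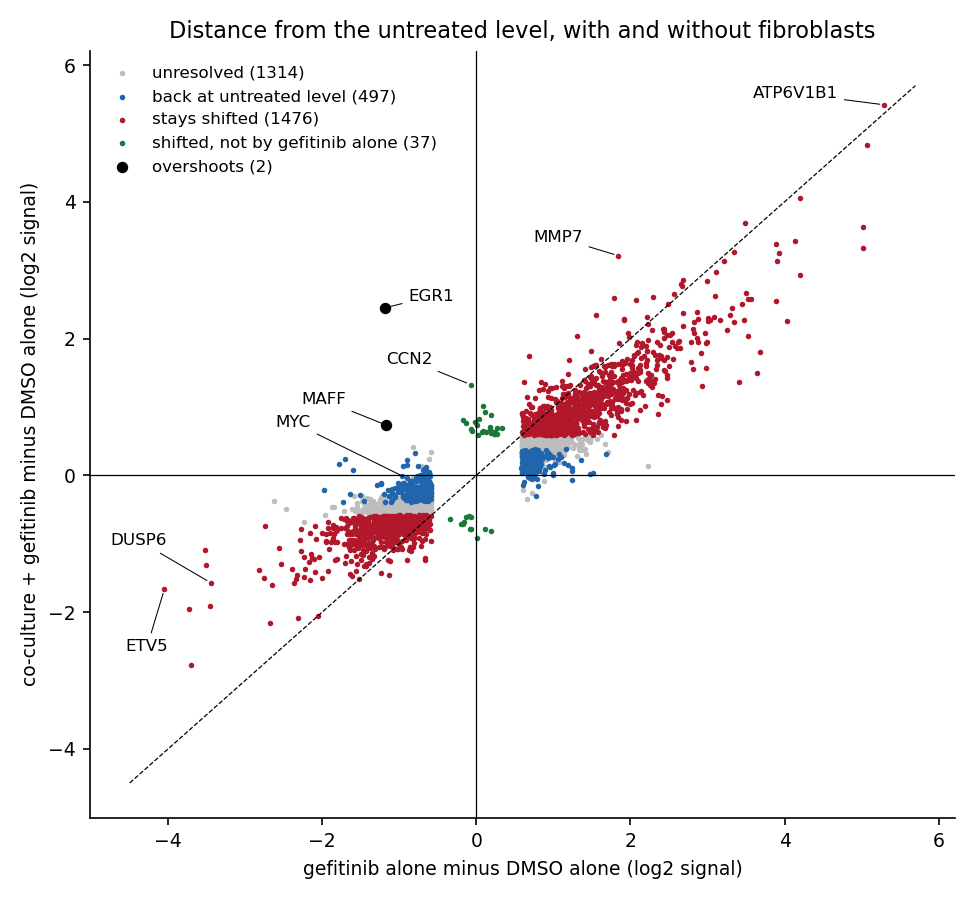
Each point is 1 gene, with its difference from DMSO alone under gefitinib alone on the x axis and in the drugged co-culture on the y axis, both as log2 signal from the same 3 DMSO arrays. The dashed line marks equal differences. The 2 black points above it at the left, EGR1 and MAFF, overshoot, and blue points are back near 0. Green points moved in the drugged co-culture while gefitinib alone stayed within 1.5-fold of DMSO.

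The transcripts that stood highest above untreated cells were ones that gefitinib alone also raised. ATP6V1B1, a subunit of the vacuolar proton pump, read 5.60, 4.86 and 4.77 on the DMSO arrays and 10.72, 10.48 and 10.29 in the drugged co-culture. All 3 drugged arrays lay far above all 3 untreated ones, a difference of 5.42 ± 0.24 (SE, n = 3 arrays per group, adjusted p = 9.17e-08 by limma) beside 5.29 with gefitinib alone. The immune checkpoint ligand VTCN1 read 5.10, 4.64 and 4.74 with DMSO and 9.86, 9.68 and 9.44 in the drugged co-culture. It stood 4.83 ± 0.16 above untreated, with 5.07 under gefitinib alone. PTGS2, the inducible cyclooxygenase, read 5.40, 5.27 and 5.27 against 9.49, 9.46 and 9.15, a difference of 4.05 ± 0.13 and of 4.20 with drug alone. For these 3 genes the drugged co-culture did not differ from gefitinib alone past the threshold, with differences of 0.13, -0.24 and -0.15 and adjusted p of 0.80, 0.372 and 0.511 by limma.

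The complement protease C1S stood 3.68 ± 0.23 above untreated, the scavenger receptor OLR1 3.63 ± 0.13, the actin-binding protein TAGLN 3.42 ± 0.17 and RETREG1, which sends endoplasmic reticulum to autophagy, 3.33 ± 0.19. OLR1 read 10.71, 10.36 and 10.11 in the drugged co-culture, against 6.72, 6.78 and 6.79 with DMSO and a mean of 11.78 with gefitinib alone, so it lay between both groups and touched neither. It was 1.39 ± 0.13 below gefitinib alone (adjusted p = 7.66e-05 by limma), and RETREG1 was 1.69 below it. Another RETREG1 probe had the opposite sign without passing, and RETREG1 stood at 1.85 in its lowest of 22 alternatives. With DMSO, TCIM, PDZK1IP1 and the matrix protease MMP7 were not well above background on any array, and they were at least 9.93-fold, 8.71-fold and 8.64-fold higher in the drugged co-culture. That bound sets the mean of the drugged arrays against the dimmest signals well above background on the DMSO arrays. The folate receptor FOLR1 (3.26 ± 0.21) and RGL1, an exchange factor for RAL (3.14 ± 0.14), completed the 12 largest rises. Sizes of genes this dim under DMSO depend on the background: without background correction ATP6V1B1 stood at 3.59, VTCN1 at 2.91, PTGS2 at 2.49, C1S at 2.24 and FOLR1 at 1.62.

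The largest falls also pointed the way of the drug. ACOX2, a peroxisomal oxidase of bile acid synthesis, read 8.10, 8.27 and 8.44 with DMSO and 4.83, 5.69 and 5.95 in the drugged co-culture, lower by 6.87-fold (-2.78 ± 0.23, adjusted p = 7.44e-06 by limma). The protease CAPN8 stood at -2.15 ± 0.16, MILR1 at -2.09 ± 0.26, the catecholamine enzyme TH at -2.05 ± 0.21 and the nuclear factor TOX2 at -1.92 ± 0.17. These sizes also depend on the background. Without background correction ACOX2 stood at -1.52, CAPN8 at -1.44, MILR1 at -0.97, TH at -1.21 and TOX2 at -1.72. TH did not differ from gefitinib alone past the threshold (0.01, adjusted p = 0.985 by limma), whereas TOX2 stood 1.54 above it. The lipase LIPG (-1.60), MYEOV (-1.57), SLC45A3 (-1.54) and the acyltransferase GPAT3 (-1.51) followed, together with ETV4, ETV5 and DUSP6, which belong to the ERK output genes.

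The ERK output genes, which report the activity of the cascade, split into a group that was still low and a group that was back. Of 24 tested members, 12 were lower than DMSO alone, 3 were higher and 9 did not pass, where 11.9% of all genes were lower and 13.2% higher. The 24 members had a median difference of -0.289. With gefitinib alone 19 were lower and 2 higher, with a median of -1.719. Medians over all genes were -0.006 and 0.003. Against gefitinib alone, 19 of the 24 stood higher in the drugged co-culture and 1 lower, where 7.1% and 6.36% of all genes did, 13.5% together.

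The ETS factors and the ERK phosphatase were the part that stayed low. ETV5 read 9.66, 9.74 and 9.63 with DMSO, a mean of 5.63 with gefitinib alone, and 7.68, 8.02 and 8.33 in the drugged co-culture. The 3 groups did not overlap, and ETV5 remained 1.67 ± 0.15 below untreated (adjusted p = 1.27e-05 by limma). ETV4 read 8.60, 8.69 and 8.80 with DMSO and 6.23, 7.02 and 6.97 in the drugged co-culture, with replicate 1 the lowest, and remained at -1.96 ± 0.18. DUSP6, which removes phosphate from ERK itself, read 8.33, 8.29 and 8.38 against 6.60, 6.69 and 7.00, a difference of -1.57 ± 0.12. DUSP6 stood at -1.03 without background correction. Also still shifted were the chromatin protein HMGA1 (-1.09), the feedback inhibitors SPRY1 (-0.86) and SPRY4 (-0.74), the EGFR ligand HBEGF (-0.78) and DUSP4 (-0.75), and, raised by gefitinib alone and still raised, the ephrin receptor EPHA4 (1.14). HMGA1 was -0.64 with the mean of its probes and another of its probes had the opposite sign.

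SPRY4 read 7.17, 7.40 and 7.40 with DMSO, a mean of 4.58 with gefitinib alone, where it was not well above background, and 6.48, 6.40 and 6.86 in the drugged co-culture. Averaging its probes ended the call (-0.43, limma adjusted p = 0.0899). The DUSP4 call ended in 4 of 22 alternatives (adjusted p up to 0.114), which were a fit on the compared groups alone and leaving out DMSO replicate 1 or drugged co-culture replicate 1 or 2.

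8 of the 24 were back at the untreated level. SPRY2, a Sprouty feedback inhibitor, read 8.20, 8.18 and 8.13 with DMSO, a mean of 6.46 with gefitinib alone, and 8.42, 8.53 and 8.30 in the drugged co-culture. The drugged arrays lay just above the untreated ones, by 0.25 ± 0.11 with a 95% interval of 0.01 to 0.48 (adjusted p = 0.115 by limma). The nuclear ERK phosphatase DUSP5 read 9.78, 9.92 and 10.12 against 10.13, 10.14 and 10.03, an overlap, with an interval of -0.08 to 0.40 after a fall of 1.78 under gefitinib alone. The receptor EPHA2 read 8.83, 8.97 and 8.84 against 8.64, 8.52 and 8.85, with an interval of -0.48 to 0.07 after a fall of 1.98. The growth regulator MYC read 10.86, 10.84 and 10.95 against 10.72, 11.02 and 10.79, and the survival gene IER3 read 11.85, 11.81 and 11.87 against 11.89, 11.82 and 11.80, both overlapping. MYC differed by -0.04 ± 0.10 and IER3 by -0.01 ± 0.13, after falls of 0.90 and 0.97 with gefitinib alone. The cyclin CCND1 (-0.20, interval -0.40 to 0.01) and the cytokine LIF (-0.02) were back as well. SPRED1, an inhibitor of RAF activation, lay within the limits but still passed the test, at -0.39 ± 0.08 (adjusted p = 0.00525 by limma, and 0.115 with median scaling).

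The other members were not placed or had not been moved 1.5-fold by gefitinib alone. FOSL1 (-0.49), SPRED2 (-0.57) and PHLDA1 (-0.37) passed the test below untreated without reaching 1.5-fold, down from -2.47, -1.97 and -2.62 with gefitinib alone. These 3 calls ended in 5, 5 and 9 of 22 alternatives, with adjusted p up to 0.0796, 0.0981 and 0.128, among them median scaling and leaving out DMSO replicate 2, and for each of them at least 1 drugged co-culture replicate. TRIB1, a scaffold for protein degradation, was higher by 0.55, but not with median scaling (adjusted p = 0.13). PLAUR, the urokinase receptor, was higher by 0.46, a call that ended in 13 of 22 alternatives (adjusted p up to 0.216). EREG (-0.03) and SPRED3, which was not well above background in the drugged co-culture, did not pass, here or with gefitinib alone.

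**Figure D2:**
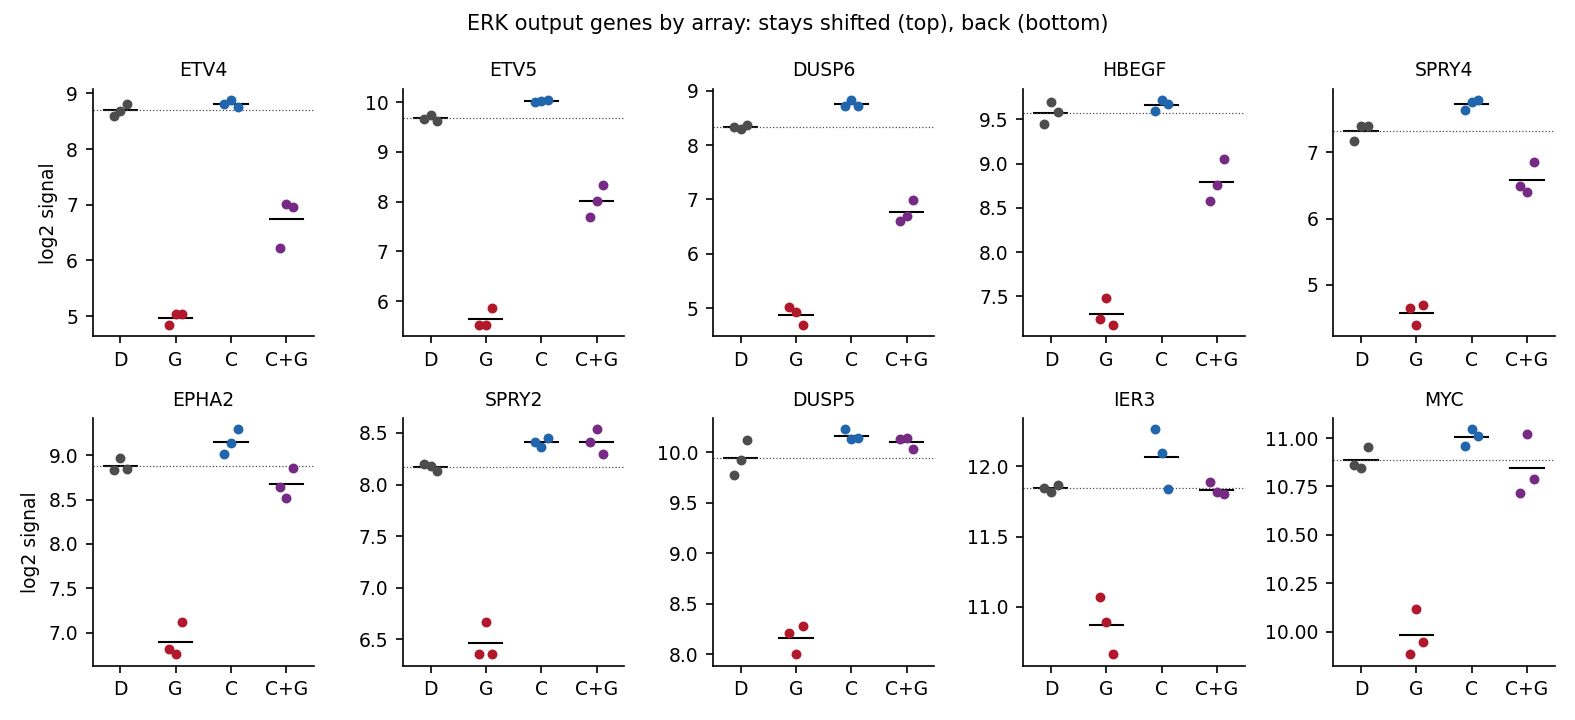
Log2 signal of 10 ERK output genes on each array (D, DMSO alone; G, gefitinib alone; C, co-culture without drug; C+G, drugged co-culture); bars are group means and the dotted line is the mean of the DMSO arrays. In the upper row the C+G points lie between G and D, and in the lower row they lie at or near the dotted line, with SPRY2 just above it and EPHA2 just below it.

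Outside the ERK list, back genes included both directions. CDA, a deaminase that salvages pyrimidines, had the largest rise with gefitinib alone among those back, 1.69, and read 9.83, 9.96 and 9.62 in the drugged co-culture against 9.32, 9.65 and 9.48 with DMSO. The groups overlapped, and the interval of the difference was 0.06 to 0.58. The microfibril protein MFAP5 read 8.08, 7.94 and 7.64 against 7.77, 7.77 and 8.00, a difference of 0.04 ± 0.14 after a rise of 1.52. DYSF, a membrane repair protein, was at 0.10 after 1.24, the hydroxylase FA2H at 0.22 after 1.35 and the histone gene H4C5 at 0.02 after 1.47. ID2, an inhibitor of differentiation factors, was not well above background on the DMSO and the drugged co-culture arrays so its difference there is not measured. It was 1 of 6 genes counted as back with no probe above background in either group.

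Among genes lowered by gefitinib alone, the replication factor MCM10 read 9.19, 8.96 and 8.97 with DMSO, a mean of 7.40 with gefitinib alone, and 8.74, 8.76 and 8.78 in the drugged co-culture. Its drugged arrays stayed just below the untreated ones, by 0.28 with an interval that ended at 0. GSDMC, a pore-forming gasdermin, was at 0.08 after -1.61, the phosphatase UBASH3B at -0.29 after -1.51 and the nuclease AEN at -0.38 after -1.46. AEN still passed the test within the limits (adjusted p = 0.011 by limma), but not with median scaling or with its probes averaged (adjusted p up to 0.142). Of the 497 back genes, 384 also differed from gefitinib alone past the threshold in the direction of untreated, and 113 did not.

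EGR1 and MAFF overshot: gefitinib alone lowered them and the drugged co-culture stood above untreated cells. EGR1, an immediate early zinc finger factor that ERK induces, read 8.55, 8.36 and 8.34 with DMSO and 7.18, 7.41 and 7.11 with gefitinib alone. It read 8.56, 8.70 and 8.72 in co-culture without drug and 10.83, 10.91 and 10.87 in the drugged co-culture. All 3 drugged co-culture arrays lay above the 9 others. EGR1 was 5.47-fold above untreated (2.45 ± 0.10, adjusted p = 6.65e-08 by limma) and 3.63 ± 0.10 above gefitinib alone, while co-culture without drug differed from DMSO by 0.24 and did not pass (adjusted p = 0.398).

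MAFF, a small MAF factor, read 7.68, 7.78 and 7.66 with DMSO and 6.61, 6.72 and 6.27 with gefitinib alone. It read 8.17, 8.31 and 7.96 in co-culture without drug and 8.51, 8.35 and 8.48 in the drugged co-culture, above every other array. The distance from untreated was smaller than for EGR1, 0.74 ± 0.13 or 1.67-fold (adjusted p = 0.00158 by limma), and the distance from co-culture without drug, 0.30, did not pass (adjusted p = 0.134). Without background correction, with the authors' normalized values and with a 2-fold limit MAFF was no longer counted as overshooting, whereas EGR1 was counted under each alternative that sorts the genes.

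The overshoot of these 2 genes stood beside a wider rise of immediate early genes, the transcripts that cells make first after a growth signal. Of 14 tested members of that list, 10 were higher than DMSO alone and 0 lower, against 13.2% and 11.9% of all genes, with a median of 0.561. With gefitinib alone 2 were higher and 5 lower, with a median of -0.266. FOS, a partner in AP-1, read 8.77, 8.43 and 8.88 with DMSO and 10.78, 10.75 and 10.82 in the drugged co-culture, 2.09 ± 0.14 higher without overlap. Gefitinib alone had lowered FOS by less than 1.5-fold (-0.49), so the gene does not enter the overshooting class, except with median scaling or without DMSO replicate 2. Its relative FOSB read 5.67, 5.74 and 5.45 against 7.64, 7.44 and 7.07, 1.77 ± 0.19 higher, with 0.24 under gefitinib alone. FOSB stood at 0.86 without background correction.

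CXCL8, the chemokine that draws neutrophils and a target of AP-1 and NF-kB, read 6.04, 7.16 and 6.77 with DMSO and 8.98, 8.94 and 8.84 in the drugged co-culture. Its untreated arrays were spread over more than 1 unit and still lay below every drugged array, a difference of 2.26 ± 0.23 (adjusted p = 3.42e-05 by limma). Gefitinib alone gave -0.38, which did not pass (adjusted p = 0.216), and without DMSO replicate 1 CXCL8 met the rule for overshooting. ZFP36, which degrades messengers of cytokines and early genes, read 9.08, 9.06 and 9.10 against 10.23, 10.06 and 9.97, 1.01 ± 0.10 higher, with 0.09 under gefitinib alone.

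ATF3 and JUNB were higher with gefitinib alone as well. The stress factor ATF3 read 6.84, 6.77 and 6.55 with DMSO, a mean of 9.26 with gefitinib alone and 8.64, 8.73 and 8.64 in the drugged co-culture, so it stayed shifted (1.95) but 0.59 below gefitinib alone. JUNB stood 1.28 ± 0.13 above untreated and 0.30 above gefitinib alone, the latter not passing (adjusted p = 0.153 by limma). SRF (0.38), JUN (0.31) and KLF6 (0.28) were higher by under 1.5-fold, and the calls of JUN and KLF6 ended in 12 and 7 of 22 alternatives (adjusted p up to 0.593 and 0.605), among them leaving out DMSO replicate 1 or 2. Median scaling ended the SRF call (adjusted p = 0.39). KLF4 (0.24), IER2 (0.01), EGR3 (-0.25) and KLF2 (-0.62) did not pass.

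**Figure D3:**
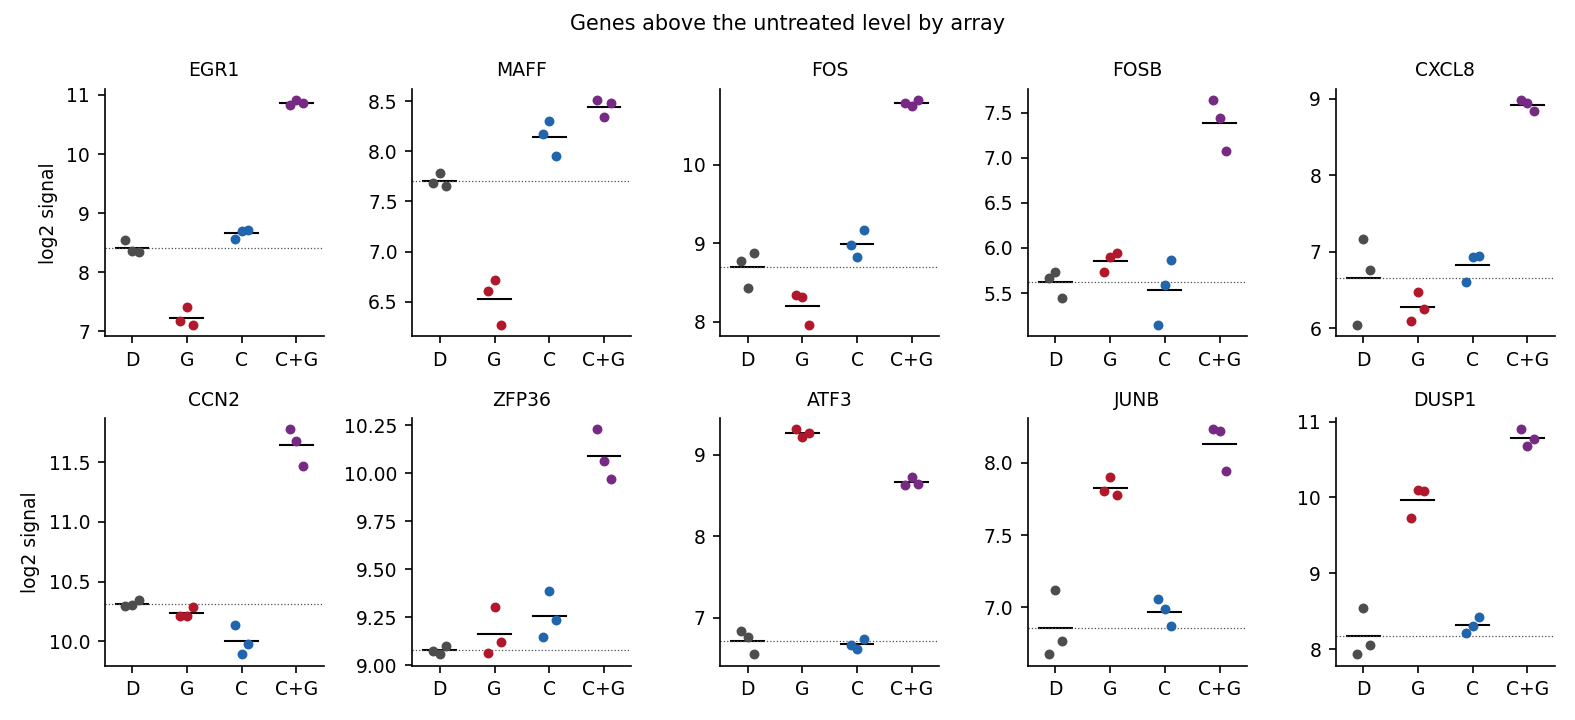
Log2 signal of 10 genes above the untreated level on each array (D, DMSO alone; G, gefitinib alone; C, co-culture without drug; C+G, drugged co-culture), with bars at group means and a dotted line at the mean of the DMSO arrays. EGR1, FOS, FOSB, CXCL8, CCN2 and ZFP36 stand apart from all other groups in C+G, MAFF lies only just above C, and ATF3 is highest in G.

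The promoters of 4 of these genes are shown because their transcripts ended above untreated cells without a rise under gefitinib alone, and because each window holds a motif of a different factor class. The sequences are from RefSeq, build GRCh38.p14, and give the 250 bases before the start of the gene, 5′ to 3′ on the gene's strand, with motif matches in capitals. They are EGR1 at chr5:138465229-138465478 on the plus strand, CCN2 at chr6:131951373-131951622 on the minus strand, MAFF at chr22:38201744-38201993 on the plus strand and CXCL8 at chr4:73740319-73740568 on the plus strand.
EGR1: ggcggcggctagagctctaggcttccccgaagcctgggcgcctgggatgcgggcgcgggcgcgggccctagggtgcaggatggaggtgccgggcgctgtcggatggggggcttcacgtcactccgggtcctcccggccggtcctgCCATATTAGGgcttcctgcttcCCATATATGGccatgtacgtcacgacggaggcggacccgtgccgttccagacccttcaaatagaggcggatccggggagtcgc
CCN2: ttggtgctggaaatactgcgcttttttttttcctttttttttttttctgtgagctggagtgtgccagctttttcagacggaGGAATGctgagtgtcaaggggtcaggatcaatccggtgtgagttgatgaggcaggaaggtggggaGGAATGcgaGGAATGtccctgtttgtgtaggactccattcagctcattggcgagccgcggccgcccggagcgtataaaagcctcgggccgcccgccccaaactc
MAFF: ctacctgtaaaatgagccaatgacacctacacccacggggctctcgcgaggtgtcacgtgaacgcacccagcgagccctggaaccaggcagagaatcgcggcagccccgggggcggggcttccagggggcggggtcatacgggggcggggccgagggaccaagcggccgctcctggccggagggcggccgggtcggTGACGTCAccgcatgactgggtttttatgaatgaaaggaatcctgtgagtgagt
CXCL8: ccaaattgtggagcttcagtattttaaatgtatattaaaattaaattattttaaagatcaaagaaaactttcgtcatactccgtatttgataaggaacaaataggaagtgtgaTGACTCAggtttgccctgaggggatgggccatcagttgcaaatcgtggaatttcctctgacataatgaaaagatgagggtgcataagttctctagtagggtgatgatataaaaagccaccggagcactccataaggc

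The capitals mark CArG boxes, the element of the serum response factor SRF, in EGR1, and GGAATG, the core that TEAD factors recognise, in CCN2. In MAFF they mark TGACGTCA, the cyclic AMP response element, and in CXCL8 TGANTCA, the AP-1 element. Each of the 4 motifs was searched on both strands of every window, and none of the matches printed overlaps another. EGR1 held 2 CArG boxes, where 1.14% of 27305 promoters of the same length held at least 1 and 0.033% at least 2. CCN2 held 3 copies of GGAATG, where 11.9% held at least 1 and 0.0952% at least 3. TGACGTCA was found in 1.77% and TGANTCA in 6.6% of all promoters. Among 10705 promoters of tested genes, 1.05% held a CArG box, 9.41% GGAATG, 2.9% TGACGTCA and 4.18% TGANTCA. The 4 windows were chosen for holding a motif, so these shares are a description and not a test. Among 13 immediate early genes with a window, EGR1 and SRF held CArG boxes, 2 each, and FOS, FOSB, JUNB and ATF3 held none of the 4 motifs. A match is a description of these letters, and no match says nothing about the factor.

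Of the 1476 genes that stayed shifted, 567 stood nearer to untreated than with gefitinib alone, 898 did not differ from gefitinib alone past the threshold and 11 stood farther from untreated. MMP7, a matrix protease of epithelia, read 4.72, 4.48 and 4.41 with DMSO, a mean of 6.37 with gefitinib alone and 7.72, 7.87 and 7.66 in the drugged co-culture. It was 1.37 ± 0.16 above gefitinib alone (adjusted p = 0.000349 by limma), and the drugged arrays lay above all others. With DMSO it was not well above background on any array, so against untreated only the bound of at least 8.64-fold holds, beside at least 3.33-fold with gefitinib alone.

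PLAT, the tissue plasminogen activator, read 8.74, 8.58 and 8.68 with DMSO, a mean of 9.35 with gefitinib alone, 9.72 in co-culture without drug and 10.56, 10.29 and 10.38 in the drugged co-culture. Here co-culture without drug also differed from DMSO, by 1.05 (adjusted p = 0.00652 by limma), and the drugged co-culture stood at 1.74 ± 0.12. DUSP1, a phosphatase for stress kinases and ERK, stood at 2.60 ± 0.16 against 1.79 with gefitinib alone, on arrays that read 10.89, 10.68 and 10.77 against 7.93, 8.55 and 8.06 with DMSO. The vasoconstrictor peptide EDN1 stood at 2.04 against 1.30, the protease inhibitor SLPI at 2.27 against 1.92 and its family member WFDC3 at 1.69 against 1.20. The retinal oxidizing enzyme ALDH1A1 stood at 2.56 against 2.07, the oxidation resistance gene NCOA7 at 1.33 against 0.89, and the complement protease CFI at 1.36 against 0.62. VWA5A was not well above background with DMSO, and was at least 2.15-fold higher in the drugged co-culture and at least 1.54-fold higher with gefitinib alone.

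FGFBP1, which releases fibroblast growth factors from the matrix, was the 1 gene of the 11 that lay lower. It read 8.73, 8.50 and 8.58 with DMSO, a mean of 7.93 with gefitinib alone and 7.06, 7.43 and 7.68 in the drugged co-culture, -1.21 ± 0.15 from untreated and 0.54 below gefitinib alone. In co-culture without drug it read 9.28 on average, higher than DMSO by 0.68, which did not pass (adjusted p = 0.0879 by limma). SCD, a fatty acid desaturase, had a like profile: 8.59, 8.21 and 8.21 with DMSO, 6.76, 6.88 and 7.64 in the drugged co-culture, and a mean of 7.68 with gefitinib alone. It stood at -1.24 ± 0.20 beside -0.66, but the step from gefitinib alone, -0.58, did not pass (adjusted p = 0.079 by limma).

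**Figure D4:**
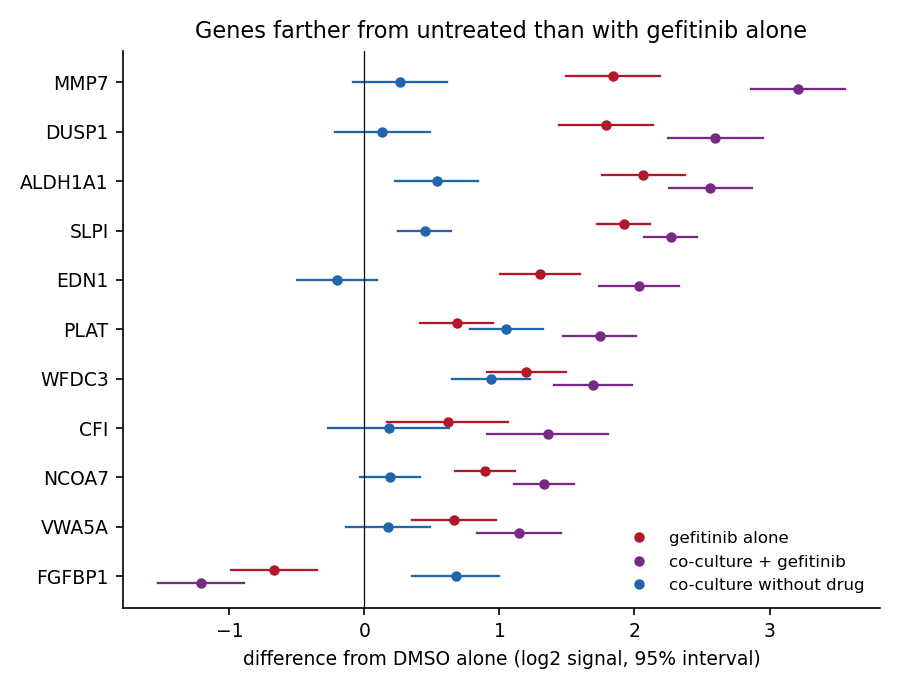
Difference from DMSO alone, with 95% intervals, of the 11 genes that stood farther from untreated in the drugged co-culture than with gefitinib alone, drawn for gefitinib alone, the drugged co-culture and co-culture without drug. The points of MMP7 and VWA5A rest on DMSO arrays not above background and show no exact size. PLAT and WFDC3 are also raised in co-culture without drug, and FGFBP1 is the gene below 0.

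In 37 genes the drugged co-culture moved by at least 1.5-fold while gefitinib alone stayed within 1.5-fold of DMSO by its 95% interval, 25 higher and 12 lower. This count was 20 without background correction, 21 with the authors' normalized values, 17 with a 2-fold limit, and 58 and 63 without drugged co-culture replicate 2 and 3. Another 166 moved without such a bound on gefitinib alone. Of the 37, 19 of the 25 higher and 7 of the 12 lower genes also differed from gefitinib alone past the threshold. CCN2, the matricellular growth factor also known as CTGF and a target of YAP and TEAD, was the largest of the 37. It read 10.30, 10.30 and 10.34 with DMSO, 10.21, 10.21 and 10.29 with gefitinib alone, 10.13, 9.89 and 9.98 in co-culture without drug and 11.77, 11.68 and 11.47 in the drugged co-culture. Only the drugged co-culture stood apart from the other 9 arrays on the upper side, 1.33 ± 0.10 above DMSO (adjusted p = 3.78e-06 by limma). ZFP36 was the next in size. PLAC1 (0.93), NUDT8 (0.82), ADH1A (0.81), SYT2 (0.78) and the adhesion molecule CEACAM1 (0.77) were dim, and their differences without background correction were 0.27 to 0.32. STEAP4 was not well above background with DMSO and at least 1.66-fold higher. Without DMSO replicate 1 NUDT8 did not pass (adjusted p = 0.0555). SYT2 overlapped with DMSO and its call ended in 6 of 21 alternatives (adjusted p up to 0.126), among them leaving out DMSO replicate 2 or 3 or drugged co-culture replicate 1 or 3. Averaging the probes of CEACAM1 ended its call (0.56, adjusted p = 0.0924).

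Among the 12 lower genes, NDRG1, a gene of stress and differentiation, read 10.23, 10.43 and 10.25 with DMSO and 9.49, 9.46 and 9.51 in the drugged co-culture, lower by 0.82 ± 0.10 with no overlap, while gefitinib alone gave 0.18. The tight junction claudin CLDN9 read 8.63, 8.68 and 8.61 against 7.85, 7.88 and 7.82, a difference of -0.78 ± 0.09 (adjusted p = 7.68e-05 by limma) beside -0.07 with gefitinib alone. GABRE, a GABA receptor subunit, stood at -0.92, a call that averaging its probes ended (-0.49, adjusted p = 0.156), and the circadian repressor CIART at -0.72. AGR2, a disulfide isomerase of secretory epithelium, passed with gefitinib alone at a small size (0.37). Its interval there did not lie wholly within 1.5-fold of DMSO, so it stands outside the 37. Its rise to 1.97 ± 0.14 in the drugged co-culture was larger than that of any of the 37. AGR2 read 6.85, 6.72 and 6.82 with DMSO, averaged 7.82 in co-culture without drug, which was 1.02 higher (adjusted p = 0.0134 by limma), and read 8.95, 8.83 and 8.51 in the drugged co-culture.

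Cell division genes were still low. Of 32 mitosis genes 31 were lower than DMSO alone, beside 11.9% of all genes, with a median of -0.749 beside -1.319 with gefitinib alone. All 32 stood higher than with gefitinib alone past the threshold, where 7.1% of all genes did. The spindle checkpoint kinase TTK read 9.64, 9.30 and 9.61 with DMSO, a mean of 7.84 with gefitinib alone and 8.47, 8.58 and 8.50 in the drugged co-culture, 2.00-fold below untreated (-1.0 ± 0.10, adjusted p = 4.24e-05 by limma). HMMR (-1.0), the phosphatase CDC25C (-0.99), the centromeric histone CENPA (-0.90) and the kinesin KIF2C (-0.78) were lower too. The proliferation antigen MKI67 read 7.36, 7.58 and 7.03 against 6.59, 6.65 and 6.55, a difference of -0.73 ± 0.13. CENPF, named after its value was seen as the 1 gene that did not pass, was at -0.18.

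DNA replication genes lay nearer to untreated. Of 34 tested, 26 were lower and 8 did not pass, where 11.9% of all genes were lower and 13.2% higher. The replication list had a median of -0.460 beside -1.384 with gefitinib alone. In that list 6 genes stayed shifted, 4 were back and 20 could not be placed, whereas in the mitosis list 23 stayed shifted, 1 was back and 8 could not be placed. The G1 cyclin CCNE1 read 8.68, 8.87 and 8.71 against 8.04, 8.01 and 7.95, a difference of -0.75 ± 0.11. GINS2 (-0.62), the thymidylate synthase TYMS (-0.61), the ribonucleotide reductase subunit RRM1 (-0.54) and CDC45 (-0.49) also passed. Ribosome biogenesis genes had 11 of 23 lower and 0 higher, with a median of -0.323, among them BOP1 (-0.88) and NOP56 (-0.72). On the other side, 5 of 12 cell cycle exit genes were higher and 2 lower, with a median of 0.378 (0.209 without background correction) beside 0.835 with gefitinib alone. The inhibitor CDKN2B stood at 1.94 ± 0.19, and CDKN1B, which blocks CDK2, was back (0.23, interval 0.00 to 0.45).

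Immune gene programmes stayed raised. Of 35 type 1 interferon response genes 22 were higher than DMSO alone and 1 lower, against 13.2% and 11.9% of all genes. The interferon median was 0.747 beside 0.842 with gefitinib alone. IFI6 read 8.36, 8.19 and 8.28 with DMSO and 9.89, 9.70 and 9.81 in the drugged co-culture, 1.53 ± 0.13 higher, and did not differ from gefitinib alone past the threshold (-0.06, adjusted p = 0.827 by limma). The antiviral GTPase MX1 (1.34), the membrane protein IFITM3 (1.30), EPSTI1 (1.23) and the signalling factor IRF9 (1.14) were higher, and OAS1 was lower (-0.47), a call that median scaling and the mean of its probes ended (adjusted p up to 0.178). Of 12 MHC class 1 genes 10 were higher and 0 lower, with a median of 0.983 beside 1.365. HLA-B, an antigen-presenting chain, read 7.74, 7.70 and 7.84 against 10.57, 10.42 and 10.15, 2.62 ± 0.11 higher and 0.48 below gefitinib alone, and HLA-F stood at 1.80. Both share sequence with other class 1 genes, so 1 probe may read several of them.

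Of 5 MHC class 2 genes 4 were higher, led by the invariant chain CD74 (2.32 ± 0.15), where 13.2% of all genes were higher and 11.9% lower. The class 2 median of 1.018 fell to 0.345 without background correction. Complement genes had 8 of 9 higher and 0 lower, with a median of 1.020 beside 0.619 with gefitinib alone. Against gefitinib alone, 1 of the 9 was higher and 1 lower. The median of 1.020 fell to 0.465 without background correction. CFB stood at 3.13 ± 0.16, and C1R, not well above background with DMSO, was at least 2.33-fold higher. Among 22 NF-kB genes, 11 were higher and 1 lower, CXCL3 (not well above background in the drugged co-culture and at least 1.33-fold lower, a call that ended in 4 of 21 alternatives), with a median of 0.444. The inhibitor homologue NFKBIZ read 7.86, 7.68 and 7.68 against 9.81, 9.85 and 9.65, 2.03 ± 0.10 higher beside 1.98 with gefitinib alone, and RELB, a subunit of NF-kB, stood at 1.61. Another NFKBIZ probe had the opposite sign without passing, and NFKBIZ stood at 0.87 in its lowest of 22 alternatives. IL6 stood at 1.46 ± 0.23, 0.55 below gefitinib alone without passing (adjusted p = 0.15 by limma), and STAT3, which carries its signal, at 0.70.

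Of 18 BCL2 family genes 3 were higher, 2 lower and 13 did not pass, with a median of 0.055, and these counts are near the shares over all genes (13.2% higher and 11.9% lower). The pro-apoptotic BMF read 5.32, 5.33 and 5.05 with DMSO, a mean of 8.05 with gefitinib alone and 7.52, 7.27 and 7.34 in the drugged co-culture, so it was 2.15 ± 0.12 above untreated and 0.67 below gefitinib alone. Its relative PMAIP1 stood at 0.93 and the survival protein MCL1 at 0.58, while BCL2L1, which encodes BCL-XL, was lower by 0.57 ± 0.09. BIK was lower by 0.36, a call that ended in 15 of 22 alternatives (adjusted p up to 0.227), and median scaling ended the MCL1 call (adjusted p = 0.0866). BCL2L11, which encodes BIM, did not pass (0.01, interval -0.31 to 0.33).

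EGFR itself read 9.84, 10.12 and 9.99 with DMSO and 9.52, 9.64 and 9.52 in the drugged co-culture, lower by 0.42 ± 0.09, while its relatives ERBB2 (0.54) and ERBB3 (0.56) were higher. Median scaling ended these 3 calls, with adjusted p of 0.0916, 0.141 and 0.133 by limma. AXL stood at -0.73 and the macrophage stimulating receptor MST1R at -0.74, and MET, the HGF receptor, did not pass (0.30 ± 0.14, adjusted p = 0.147). FOXO and receptor feedback genes, which rise when AKT is less active, had 11 of 16 higher and 1 lower, against 13.2% and 11.9% of all genes. The FOXO list had a median of 0.652 beside 0.836 with gefitinib alone. CITED2 stood at 2.30 ± 0.11 and PIK3IP1 at 2.01, and the pseudokinase TRIB2 was lower by 1.49.

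Metabolic and secretory genes followed. Lysosome and autophagy genes had 12 of 27 higher and 0 lower, with a median of 0.304 beside 0.636 with gefitinib alone, as in WIPI1 (2.34), CTSH (1.47) and GABARAPL1 (1.39). Glycolysis genes had 11 of 20 lower and 2 higher, with a median of -0.339, as in PFKFB4 (-0.99), ENO2 (-0.86) and the hexokinase HK2 (-0.84), against PFKFB3 (0.76) and the transporter SLC2A3 (0.78). Of 15 fatty acid synthesis genes 3 were lower, SCD, the synthase FASN (-0.57) and ELOVL6 (-0.47). Of 18 cholesterol synthesis genes 4 were lower, among them INSIG1 (-0.73), and 2 higher, TM7SF2 (2.08) and HSD17B7 (0.5). Over all genes 11.9% were lower and 13.2% higher. The ELOVL6 and HSD17B7 calls ended with median scaling (adjusted p = 0.0699 and 0.185 by limma). Glucocorticoid response genes had 6 of 11 higher and 1 lower, with a median of 0.672, led by DUSP1 and CEBPD (1.56), and of 0.343 without background correction. YAP targets had 7 of 21 higher and 3 lower, with a median of 0.171, which was 0.099 without background correction. IGFBP5 was at least 7.64-fold higher, and IGFBP4 was lower by 0.84 beside 2.16 with gefitinib alone.

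The labelled cell type was checked on its markers. EPCAM, CDH1, KRT7, KRT8, KRT18 and KRT19, which mark epithelial cells, were detected on every array. Of 27 listed epithelial genes 25 had a probe. Among them, OCLN was detected on 0 of 12 arrays. ESRP2 was detected on 1 array with DMSO, 1 with gefitinib alone and 0 co-culture arrays. Of 23 tested epithelial genes 7 were higher and 2 lower, against 13.2% and 11.9% of all genes. The epithelial median was 0.178. CLDN1 (1.62), ELF3 (1.24) and CDH1 (0.63) were higher and EPCAM (-0.39) lower. With median scaling CDH1 and EPCAM did not pass (adjusted p of 0.0882 and 0.0701 by limma). The other lower gene was ESRP1 (-0.65), a call that ended in 6 of 22 alternatives (adjusted p up to 0.115). The mucin MUC1 read 9.22, 9.10 and 9.27 against 12.35, 12.09 and 12.08, 2.97 ± 0.10 higher beside 3.12 with gefitinib alone, and co-culture without drug raised it by 1.07 (adjusted p = 0.00277 by limma). VIM, an intermediate filament of mesenchymal cells, read 8.69, 8.62 and 8.70 against 7.41, 7.66 and 8.14, lower by 0.94 ± 0.17, and did not differ from gefitinib alone past the threshold (-0.01, adjusted p = 0.977 by limma).

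Fibroblasts were the other cell in the well. Of 23 fibroblast markers with a probe, COL3A1, PDGFRB, THY1 and LUM were detected on 0 of 12 arrays, and 8 markers were detected on 0 arrays of the drugged co-culture, as were 8 with DMSO, but these were not the same markers. COL6A3 was detected on 2 drugged co-culture arrays and 1 undrugged one, FBN1 on 1 of each and FAP on 1 drugged array, all 3 on 0 of the 6 arrays without fibroblasts. DCN was detected on 2 drugged arrays, 1 with DMSO and 1 with gefitinib alone, and PDGFRA, POSTN and PDPN on 0 drugged arrays and 1 with DMSO. The 13 tested markers summed to 7236.3 to 8353.4 intensity units in the drugged co-culture and 6541.4 to 8036.0 with DMSO, ranges that overlap. Sums were 8318.2 to 9705.3 with gefitinib alone and 8731.9 to 8894.8 in co-culture without drug, both above the DMSO range. In co-culture without drug 0 of the 13 passed above DMSO and 2 below. In the drugged co-culture 5 of the 13 were higher than DMSO alone and 0 lower, against 13.2% and 11.9% of all genes. The 5 were TAGLN (3.42), COL5A1 (1.60), SPARC (1.27), COL1A1 (1.02) and FBLN1 (0.41). The COL1A1 call ended in 5 of 22 alternatives (adjusted p up to 0.0586) and the FBLN1 call in 8 (up to 0.373), both among others without DMSO replicate 1 or 2 or drugged co-culture replicate 1. All 5 were also higher in gefitinib-treated PC9 without fibroblasts, at 4.13, 2.20, 1.42, 1.36 and 0.39. Whether material from fibroblasts contributes to these values was not tested. Of 10 leukocyte markers 3 were tested, summing to 139.1 to 178.1 units in the drugged co-culture, 97.7 to 123.5 with DMSO and 158.6 to 188.1 with gefitinib alone. CD14 was higher (0.77), a call that ended in 5 of 22 alternatives (adjusted p up to 0.0931), among them without DMSO replicate 1 or 2 or drugged co-culture replicate 2 or 3. TYROBP and FCER1G were detected on 0 of 12 arrays, whereas CSF1R was detected on every array. CD79A was detected on 3 drugged co-culture arrays, 2 with DMSO, 2 with gefitinib alone and 1 undrugged co-culture array. PTPRC and NKG7 were each detected on 1 drugged co-culture array and on 0 arrays of the other groups.

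**Figure D5:**
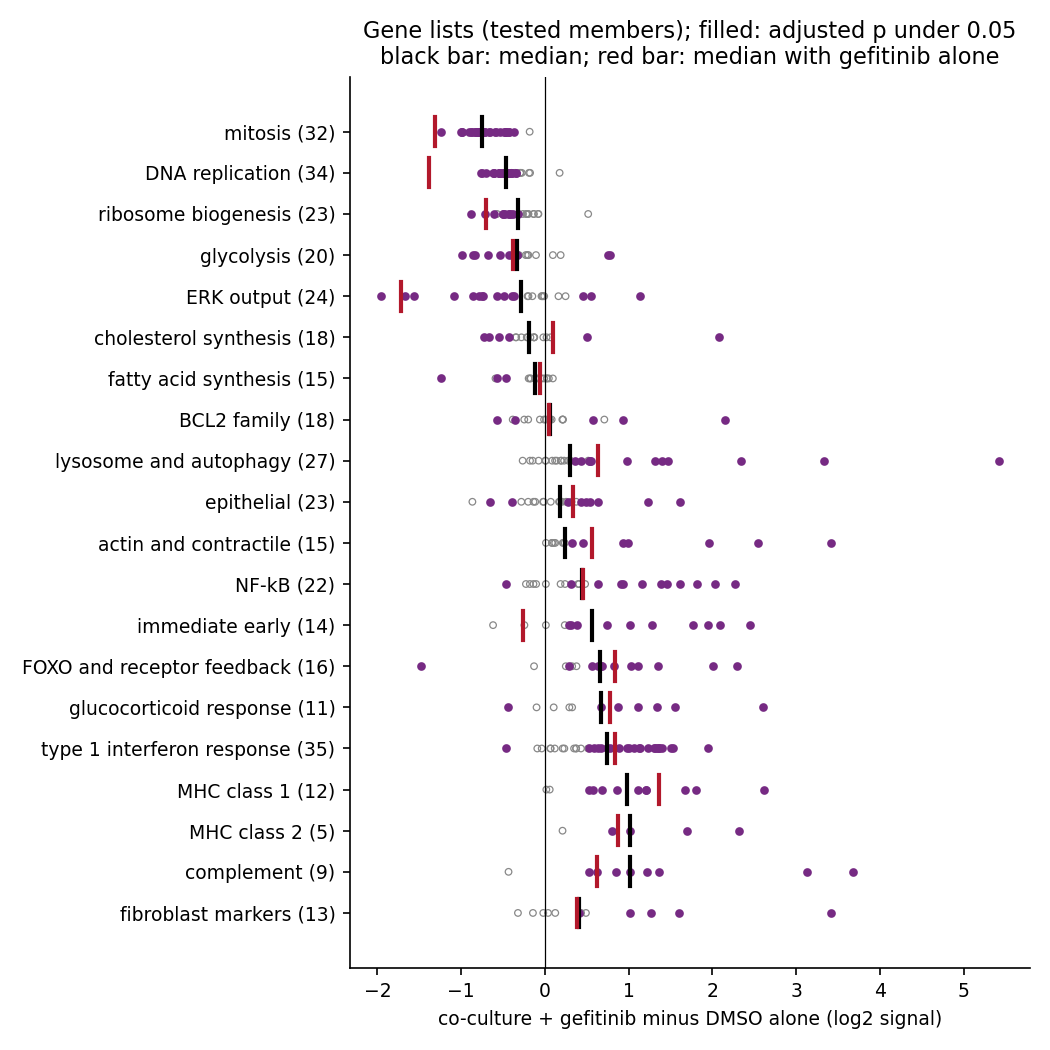
Each point is 1 tested gene of a list, named at the left with its number of tested genes, at its difference between the drugged co-culture and DMSO alone in log2 signal. Filled points passed the test, black bars are list medians and red bars the medians with gefitinib alone: mitosis lies at -0.749, immediate early genes lie above 0 where their red bar lies below, and ERK output genes run from ETV4 at -1.96 to EPHA4 at 1.14.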

How the data were processed

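Expression was measured on 12 Illumina bead arrays. Per the file headers, the authors deposited raw signals (linear intensity, not logged or normalized) with a detection p-value per probe, made in a way the sources used here do not give, and normalized intensity values on a linear scale by an unstated method. From the raw signals, log2 values were made with limma 3.58.1 (neqc, offset 16) in R 4.3.3. Of 48107 probes, 5 lacked a value, 25510 had a detection p-value below 0.05 on at least 3 arrays, and 7221 of those had no single gene symbol and were left out. The brightest probe stood for each of 13514 genes (3677 with several). limma fitted 4 group means over all 12 arrays, adjusting p-values by Benjamini-Hochberg over all genes. The procedure was tested on simulated data. Alternatives changed background correction, scaling, filters, probe choice, samples and array weights. Members and gene lists were chosen with earlier results of these data known. Genes to name were drawn by rule. The rule took the 12 largest rises and falls and the 8 largest of each class and direction. For genes that stayed shifted it took the 4 largest and 4 smallest ratios. From each list it took up to 5 genes with the smallest p-value and any countermoving ones. A fixed set of receptors and markers was added. Not every gene drawn is printed, and countermoving ones are among those left out. Further ERK output, immediate early and farther genes, CENPF and HLA-F were named after their values were seen.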

Additional observations from a re-analysis of the deposited data

How the results depend on the processing

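In the main setting 1781 genes were higher and 1604 lower than DMSO alone. Of the genes that gefitinib alone moved, 912 stayed higher, 564 stayed lower, 222 were back from higher, 275 back from lower and 2 overshot. A further 37 were new: they moved in the drugged co-culture while gefitinib alone stayed within 1.5-fold of DMSO. With a 2-fold in place of a 1.5-fold limit, 401 stayed higher, 93 stayed lower, 1 overshot and 17 were new. With the authors' normalized values these counts were 521, 237, 1 and 21, and without background correction 466, 217, 1 and 20. Median scaling gave 1125 higher, 779 lower and 28 back from higher; it moved the median of all genes to -0.027 here and -0.209 with gefitinib alone and the share of higher calls from 52.6% to 59.1%. Median scaling over passing probes, added after seeing the data, gave 1608 higher and 2018 lower (44.3% higher). Leaving out 1 array at a time gave 1348 to 1755 higher, 1093 to 1581 lower, 826 to 947 that stayed higher, 472 to 595 that stayed lower, 135 to 239 back from higher, 196 to 293 back from lower, 2 to 3 overshooting and 27 to 63 new. Without drugged co-culture replicate 3, 135 were back from higher and 63 were new, and without replicate 2, 58 were new. The replicate numbers did not pair the samples: deviations of same-numbered arrays correlated at -0.0383, -0.0152 and -0.0245. A replicate block gave 1670 higher and 1459 lower, with 903 and 563 that stayed shifted, 207 and 252 back, 2 overshooting and 41 new. Of the named genes' values under the alternatives, 307 lost their call (79 genes) and 40 gained one (13 genes). Among values that passed in the main setting or the alternative, 0 changed sign. Values that passed in neither could change sign, as for MYC (-0.19 to 0.11) and IER2 (-0.13 to 0.15). Without background correction the medians of the interferon (0.454), MHC class 2 (0.345), NF-kB (0.200), JAK/STAT3 (0.22), complement (0.465), FOXO (0.405), glucocorticoid (0.343), cell cycle exit (0.209), YAP (0.099), cholesterol synthesis (-0.123), BCL2 family (0.025), fibroblast marker (0.157) and leukocyte marker (0.194) lists were over 1.5 times smaller, as were those of some lists not described. Median scaling moved the epithelial median to 0.073 and the glycolysis median to -0.535, and without DMSO replicate 1 the BCL2 family median was -0.025. Signal over background limits the sizes given for dim genes. Except where stated, the cause was not tested.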
